A study of Mus musculus with 24 samples.

Results

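The antiviral interferon-stimulated genes described here are 38 genes that type I interferons can switch on. They were taken by symbol from the raw gene counts of mouse skin. All 38 were among the 27179 genes of the count table, and all 38 were among the 17770 genes with enough counts to test. RNA was extracted from skin homogenates of C3H/HeJ mice with alopecia areata (AA), a disease of hair loss that was transferred to them by grafts of alopecic skin or by T cells. The treated groups received INCB039110 (JAK1i, 50 mg/kg), CEP-33779 (JAK2i, 50 mg/kg), PF-06651600 (JAK3i, 30 mg/kg), ruxolitinib (a JAK1/2 inhibitor, 30 mg/kg) or tofacitinib (a pan-JAK inhibitor, 30 mg/kg), with 3 libraries each. A further 3 libraries came after vehicle alone, and 6 came before treatment, 1 for each cohort, so that every group carried the same strain and disease. These doses are those of the systemic treatment in the study's methods, while the sample labels describe an ointment and call the vehicle group a control. The age of the mice is not given in the sources used here, and no source says that the 3 libraries of a group are separate mice, so p-values measure only the spread between these libraries.

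Type I interferons (IFN-α and IFN-β) bind the receptor of Ifnar1 and Ifnar2, to which the kinases JAK1 and TYK2 are attached. These switch on a transcription factor complex that contains STAT2 and IRF9 and binds the interferon-stimulated response element (ISRE) in the promoters of antiviral genes. IFN-γ signals instead through JAK1 and JAK2 to a factor that binds the gamma-activated site (GAS), and it raises many of the same genes. JAK3 is attached to the common γ chain of the receptors for IL-2, IL-7, IL-15 and related cytokines and is not part of either interferon receptor. Both interferon responses are known to be active in AA skin. JAK3i is therefore the inhibitor in this set that is aimed at a kinase outside both interferon receptors, and the comparison asks which of these genes stayed high under it.

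RefSeq promoters (build GRCm38.p6, 250 bases before to 50 after a start site) were held for 27 of the 38 genes. The ISRE core was searched as GAAANNGAAA and, on the other strand, TTTCNNTTTC, with overlapping matches counted. It was found in 12 of the 27 genes (44.4%), against 3.99% of all 27025 genes with a promoter in the same table. The GAS letters TTCNNNGAA, which read the same on both strands, were found in 6 of the 27 (22.2%), against 9.55% of all genes. Stretches with the ISRE core are printed for 4 genes whose fall after JAK3i is described below, and the capitals mark each match. Isg15 (chr4:156200835-156200936, minus strand) has 3 overlapping matches that begin 78, 72 and 66 bases before the start. Ifit1 (chr19:34640745-34640853, plus strand) has matches at 104 and 85 bases before the start, both on the other strand. Oas3 (chr5:120777685-120777774, minus strand) has a single match at 75 bases before the start, and Rsad2 (chr12:26456523-26456612, minus strand) has a single one at 120 bases on the other strand.
Isg15: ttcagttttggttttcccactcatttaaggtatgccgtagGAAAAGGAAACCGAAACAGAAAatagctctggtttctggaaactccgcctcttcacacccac
Ifit1: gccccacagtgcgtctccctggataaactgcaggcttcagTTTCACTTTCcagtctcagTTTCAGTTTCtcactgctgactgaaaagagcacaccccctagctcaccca
Oas3: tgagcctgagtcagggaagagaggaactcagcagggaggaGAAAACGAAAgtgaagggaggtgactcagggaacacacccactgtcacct
Rsad2: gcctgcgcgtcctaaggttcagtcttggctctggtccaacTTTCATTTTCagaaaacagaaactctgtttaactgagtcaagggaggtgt

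Of the 5 genes that were not called lower after JAK3i (Ifit2, Oasl1, Ifi204, Ifi27l2a and Epsti1, described further on), 3 had a promoter in the table, and none of these held the ISRE core, while Ifit2 held the GAS letters. Among the 24 genes with a promoter that were called lower after JAK3i, 12 held the ISRE core and 5 the GAS letters. A match to these letters is a description of the window and not a bound site, and the absence of a match says only that these letters are not in these bases. Stretches of the promoters of Oasl1 (chr5:114923043-114923142, plus strand, 197 to 98 bases before the start) and Epsti1 (chr14:77904139-77904238, plus strand, 100 to 1 bases before the start) are printed for comparison, with no capitals because neither holds the core.
Oasl1: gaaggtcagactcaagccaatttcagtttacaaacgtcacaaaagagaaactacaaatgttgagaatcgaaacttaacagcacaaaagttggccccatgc
Epsti1: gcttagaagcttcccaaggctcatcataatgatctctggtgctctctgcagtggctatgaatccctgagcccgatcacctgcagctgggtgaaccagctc

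**Figure D1:**
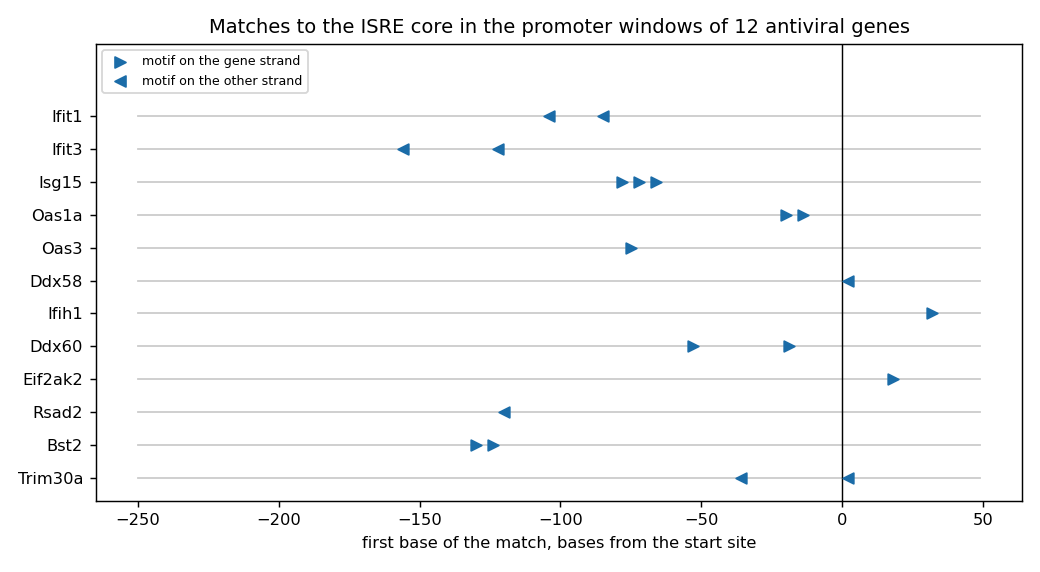
Matches to the ISRE core in the promoter windows of 12 antiviral genes, with the distance from the start site in bases on the horizontal axis and 1 gene per line. Isg15 has 3 overlapping matches and Rsad2 has 1; the 2 windows of Trim30a are drawn on the same line.

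The 38 genes lie on 14 chromosomes, and several are neighbours in GRCm38. Ifit1, Ifit2 and Ifit3 stand together on chromosome 19 between positions 34550550 and 34650009, Oas1a, Oas2 and Oas3 on chromosome 5 between 120730333 and 120907544, and Oasl1 and Oasl2 on the same chromosome between 114896926 and 114937911. Rsad2 and Cmpk2 are neighbours on chromosome 12, and Parp9 and Dtx3l overlap on chromosome 16 (35938470 to 35972621 and 35926515 to 35939027), so that without strand, which the sources do not state for the counting, reads of the shared stretch cannot be assigned. Ifit3 and Ifit3b, Oas1a and Oas1g, the Trim30 genes, Ifi27l2a and Ifi27l2b and the Ifi200 genes around Ifi204 are related genes, some of them close copies. How far reads were shared between them is not known, and their single values are uncertain to that extent.

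Library depth was even, with 17311913 to 21858670 counts per library. A second deposited table, with 7 signature genes, carries the same column names, and 18 of its 24 columns matched the library of the same name in the count table while 6 matched another, all among the JAK1i, JAK2i and JAK3i columns. Groups here follow the header of the count table. The labels do not say which header is right. Every JAK1i, JAK2i and JAK3i value rests on that choice, so the main counts are also given without those 6 libraries. That fit, chosen after seeing the data, keeps 1 library each of JAK1i, JAK2i and JAK3i, which is assumed to vary like the other groups. JAK1i replicate 3, named JAK3i replicate 1 in the second table and so 1 of these 6 libraries, stood apart from its group. Its difference from the other 2 JAK1i libraries was 25.3 to 27.9 times the counting noise, where replicates 1 and 2 differed by 3.87 times. The ruxolitinib libraries differed from JAK1i replicate 3 by 6.01 to 8.83 times and the JAK3i libraries by 19.1 to 22.9 times. The main counts and medians that rest on JAK1i are therefore also given without JAK1i replicate 3. With the count header, JAK2i libraries differed from each other by 2.45 to 3.49 times the counting noise and JAK3i libraries by 4.64 to 5.83 times. Under the second table's names, libraries within JAK1i, JAK2i and JAK3i would differ by 19.1 to 72.7 times. The cause of the mismatch in names was not tested. Skin markers were found in every library, with 10 epidermal keratinocyte genes summing to 10460 CPM (counts scaled to library size) or more. Skeletal muscle markers made up 4.92 to 11.4% of counts after JAK1i and 3.44 to 4.71% after JAK3i, against 0.826 to 1.08% after vehicle. They made up 3.27 to 3.46% after ruxolitinib, 2.01 to 5.22% after tofacitinib and 0.746 to 1.13% after JAK2i. The tissue make-up thus differed between groups, and its part in the antiviral levels was not tested.

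With groups named by the header of the count table, JAK1i lowered every one of the 38 genes and JAK2i lowered none. JAK3i, ruxolitinib and tofacitinib lowered most of them to a smaller extent. Calls rest on edgeR's quasi-likelihood test, with p-values adjusted over the 17770 genes by Benjamini and Hochberg and a threshold of 0.05. After JAK1i 38 of 38 were lower than after vehicle, where 35.4% of all genes were called lower and 28.8% higher. Without JAK1i replicate 3 all 38 were still lower, with 35% of all genes lower and 34.6% higher, and the median of the 38 was −2.43. After JAK3i 33 were lower and 0 higher (33.1% and 31.7% of all genes). After ruxolitinib and tofacitinib 37 were lower and 0 higher, with 27.2% of all genes lower and 23.6% higher after ruxolitinib and 28.2% and 24.8% after tofacitinib. The median log2 fold change of the 38 genes was −2.45 after JAK1i, −1.69 after JAK3i, −1.78 after ruxolitinib and −1.62 after tofacitinib, while that of all genes was between −0.06 and 0.02 in these comparisons. All of them share the same 3 vehicle libraries. Without the 6 libraries named differently in the 2 tables, 37 genes were lower after JAK1i (30.8% of all genes), with Ifi27l2a no longer called (−0.60, adjusted p = 0.0664), 33 were lower after JAK3i (28% of all genes) and 0 were called after JAK2i. With total counts in place of TMM, 37 antiviral genes were again lower after ruxolitinib, as were 20.3% of all genes. Of all genes called after ruxolitinib, 39.6% were then lower, against 53.6% with TMM. In bulk skin, fewer cells of a type and less RNA per cell cannot be told apart.

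**Figure D2:**
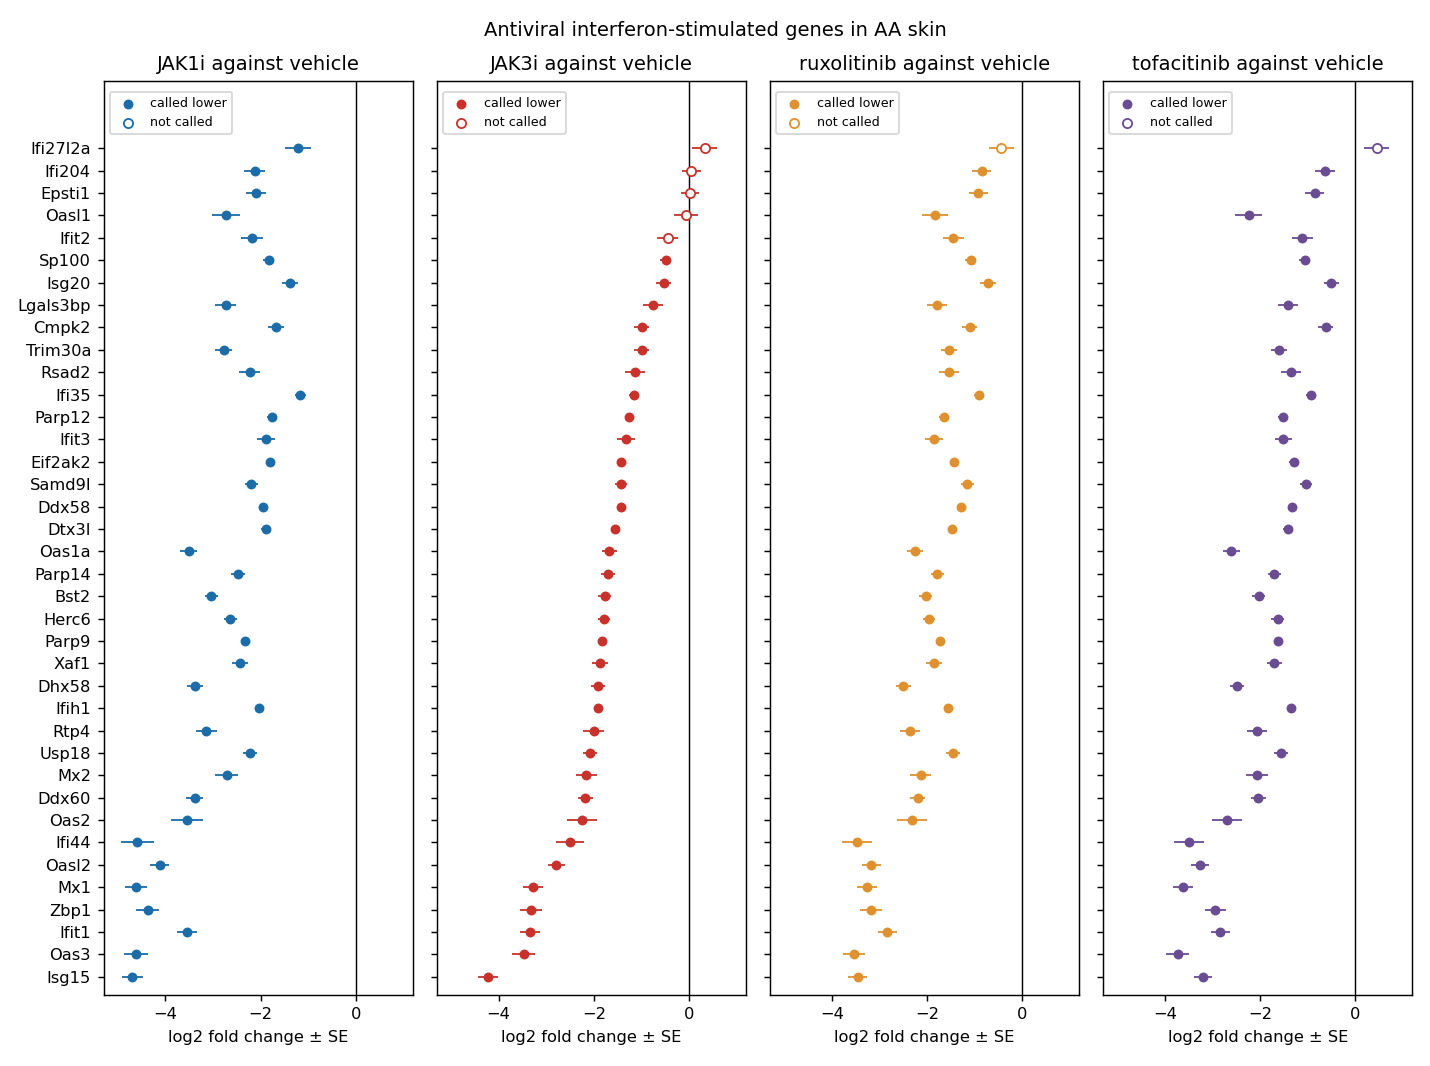
Log2 fold change against vehicle, with its standard error as bars, for the 38 antiviral genes after JAK1i, JAK3i, ruxolitinib and tofacitinib, ordered by the value after JAK3i; filled points were called lower and open points were not called. JAK1i values run from −4.70 to −1.16 and are all filled, while JAK3i values run from −4.22 to 0.33 with 5 open points.

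Expressed against the vehicle level, the genes kept different shares of their transcripts. After JAK1i the fitted level was below 25% of vehicle for 28 genes, 25 to 50% for 10 and above 50% for 0, with a range of 3.85% for Isg15 to 44.6% for Ifi35. After JAK3i 12 genes were below 25%, 16 between 25 and 50% and 10 above 50%, with a range of 5.36% for Isg15 to 125.5% for Ifi27l2a. After ruxolitinib these counts were 14, 19 and 5 genes (8.67% for Oas3 to 73.6% for Ifi27l2a), and after tofacitinib 15, 17 and 6 (7.53% for Oas3 to 136.7% for Ifi27l2a). JAK1i gave the lowest of the 4 values for all 38 genes, and for 35 without JAK1i replicate 3, where 27 genes were below 25% of vehicle after JAK1i, 9 between 25 and 50% and 2 above 50%. JAK3i gave the highest value for 18 of them, tofacitinib for 16 and ruxolitinib for 4, but several of these gaps are small and the tested ones are given below. How often each treatment gave the lowest or highest value among all genes was not counted.

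After JAK2i no antiviral gene was called in either direction by edgeR, as no gene of the 17770 was (0% lower and 0% higher). None of the 38 reached an unadjusted p below 0.05, where 213 of all genes did, and DESeq2 called 0 genes. Log2 fold changes against vehicle lay between −0.14 for Oas3 and 0.20 for Ifi204, and their 95% intervals lay within −0.66 and 0.63. Vehicle skin, set against pretreatment skin, likewise had 0 genes called (0% lower and 0% higher of all genes), with 0 antiviral genes and 232 of all genes at an unadjusted p below 0.05 and 0 genes called by DESeq2. The log2 fold changes of vehicle over pretreatment lay between −0.09 and 0.16, with intervals within −0.51 and 0.59. The 213 and 232 genes are both fewer than the 5% of all genes expected by chance at an unadjusted p below 0.05. The 0 antiviral genes in each comparison are therefore not particular to this group.

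The summed level of the 38 genes shows the size of the change in each library. It was 946 to 1553 CPM after JAK3i, 539.7 to 697.2 after JAK1i, 1007 to 1050 after ruxolitinib, 1090 to 1279 after tofacitinib, 3380 to 3501 after JAK2i and 3453 to 3557 after vehicle, and 3082 to 3728 in pretreatment skin. The JAK3i libraries spread the most among the 4 treatments with a fall. JAK3i replicate 1 had the highest value of its group for 34 of the 38 genes and replicate 2 the lowest for 35. Within JAK1i, replicate 2 was lowest for 29 genes and replicate 3 highest for 22. The same orders were not counted among all genes, so whether they are particular to this group is not known.

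**Figure D3:**
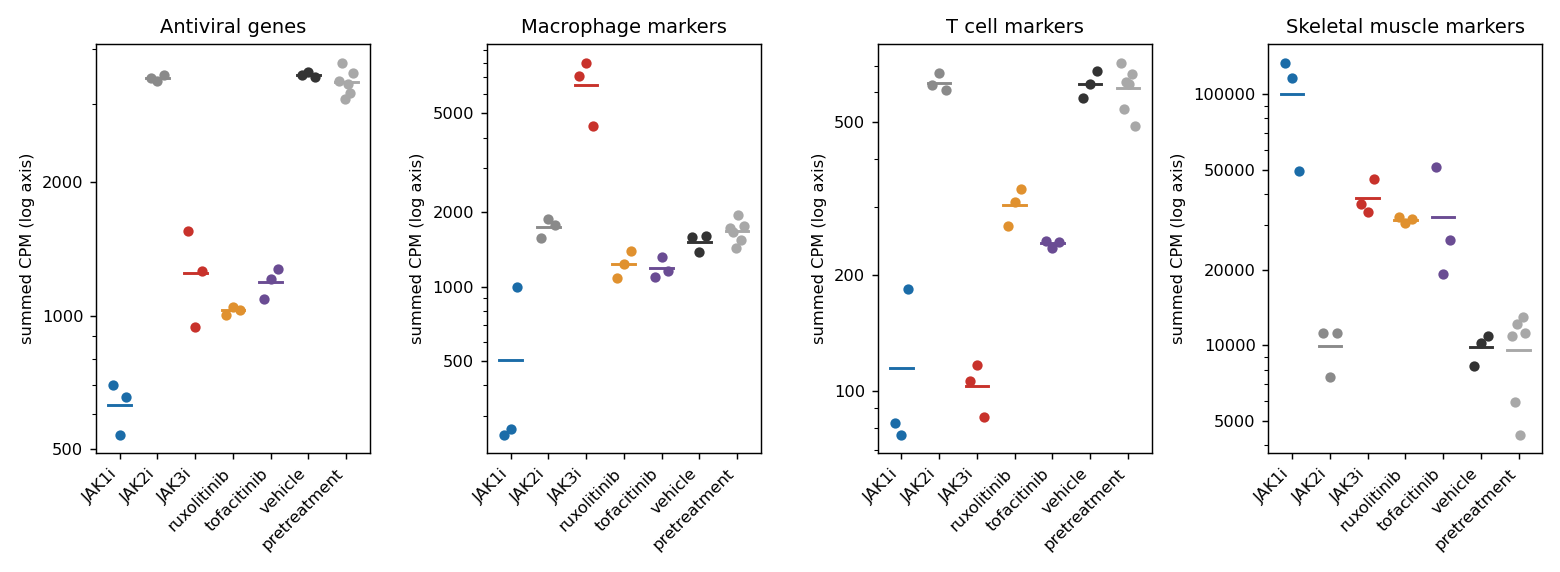
Summed CPM per library, on log axes, of the 38 antiviral genes and of the macrophage, T cell and skeletal muscle marker lists, with points for libraries and lines for group means over 7 groups. Antiviral sums after JAK3i (946 to 1553) lie above those after JAK1i (539.7 to 697.2), and macrophage marker sums after JAK3i (4438 to 8022) lie above every other group.

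The Mx genes encode dynamin-like GTPases that trap viral nucleocapsids, although Mx1 is defective in most inbred mouse strains. Mx1 was at 7.86, 3.78 and 5.99 CPM after JAK3i and 1.79, 1.68 and 3.47 CPM after JAK1i, against 56.6, 60.0 and 54.1 CPM after vehicle. Ruxolitinib gave 5.73, 5.94 and 6.17 CPM, tofacitinib gave 4.41, 4.52 and 4.94 CPM, and the pretreatment range was 47.0 to 62.7 CPM with a median of 52.9. All 12 libraries of these 4 inhibitors lay far below all vehicle libraries. The log2 fold change of Mx1 was −3.28 ± 0.21 (standard error) after JAK3i by edgeR (adjusted p = 1.93e-10) and −4.62 ± 0.23 after JAK1i (adjusted p = 6.11e-12). Mx2 kept 22.4% of its vehicle level after JAK3i and 15.2% after JAK1i.

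Of the IFIT genes, whose products bind foreign RNA and block its translation, Ifit1 and Ifit2 took different levels after JAK3i although they lie in 1 cluster. Ifit1 was at 12.5, 5.82 and 10.6 CPM after JAK3i and 10.1, 6.26 and 8.80 CPM after JAK1i, against 97.8, 100.5 and 94.6 CPM after vehicle. JAK3i and JAK1i libraries overlapped for Ifit1. Ifit2 was at 30.1, 16.9 and 31.9 CPM after JAK3i and 6.71, 5.95 and 11.2 CPM after JAK1i, against 36.5, 37.1 and 34.3 CPM after vehicle, so its JAK3i libraries lay below vehicle without overlap but close to it in 2 of 3. The log2 fold change against vehicle was −3.34 ± 0.20 for Ifit1 (edgeR, adjusted p = 1.23e-10) and −0.45 ± 0.21 for Ifit2 (adjusted p = 0.0695, 95% interval −0.90 to −0.01). In pretreatment skin Ifit1 ranged over 87.1 to 106.9 CPM (median 90.7) and Ifit2 over 28.2 to 41.9 CPM (median 36.0). After ruxolitinib and tofacitinib Ifit2 was called lower, by −1.45 and −1.11 on the log2 scale. Ifit3 lay between them, at 39.8% of vehicle after JAK3i. Ifit2 lay close to the threshold after JAK3i. It was called lower without JAK3i replicate 3 (−0.61, adjusted p = 0.0314), with the replicate number as a block among the 18 posttreatment libraries (−0.49, adjusted p = 0.0414) and against pretreatment in place of vehicle (−0.43, adjusted p = 0.0464).

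Isg15 encodes a ubiquitin-like protein that is attached to other proteins, Herc6 is the ligase that attaches it in mice, and Usp18 removes it and also blocks the interferon receptor. Isg15 was the gene that fell furthest after JAK3i and after JAK1i. It was at 7.65, 4.39 and 4.97 CPM after JAK3i and 3.63, 3.10 and 5.49 CPM after JAK1i, against 114.4, 107.8 and 95.2 CPM after vehicle. Ruxolitinib left 9.60, 9.40 and 9.85 CPM and tofacitinib 11.5, 9.93 and 13.1 CPM, and pretreatment skin had 77.9 to 118.6 CPM with a median of 94.5. The JAK3i libraries of Isg15 thus overlapped those of JAK1i and lay below every ruxolitinib and tofacitinib library. Its log2 fold change was −4.22 ± 0.21 after JAK3i (edgeR, adjusted p = 9.59e-12) and −4.70 ± 0.22 after JAK1i (adjusted p = 2.31e-12). Usp18 fell by 2.08 on the log2 scale after JAK3i and Herc6 by 1.79.

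The oligoadenylate synthetases make the small nucleotide that activates RNase L, which cuts viral RNA. Oasl2 was the member of this group with the most counts. It was at 50.2, 23.3 and 33.4 CPM after JAK3i and 16.7, 11.5 and 14.3 CPM after JAK1i, against 247.1, 253.5 and 236.6 CPM after vehicle. Its pretreatment levels ran from 211.9 to 272.9 CPM (median 220.8), and it had 29.1, 26.7 and 26.2 CPM after ruxolitinib and 25.2, 23.4 and 28.5 CPM after tofacitinib. The lowest JAK3i library of Oasl2 lay at the lower edge of the tofacitinib values and the other 2 above them. Oas3 kept 8.98% of vehicle after JAK3i, Oas2 21.0% and Oas1a 31.4%, while Isg20, an exonuclease of single-stranded RNA, kept 69.2% (log2 fold change −0.53, edgeR, adjusted p = 0.00722).

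Oasl1, a relative that has lost the synthetase activity and in mice limits the translation of Irf7, stayed at its vehicle level after JAK3i. It was at 13.9, 8.58 and 12.4 CPM after JAK3i, against 12.8, 11.03 and 12.6 CPM after vehicle, and the pretreatment range was 8.65 to 16.1 CPM (median 11.96). Lower values followed JAK1i, ruxolitinib and tofacitinib, with 1.68, 1.16 and 2.63 CPM after JAK1i, 4.62, 3.12 and 2.43 CPM after ruxolitinib and 2.60, 2.06 and 3.03 CPM after tofacitinib. JAK3i and vehicle libraries of Oasl1 overlapped, while no library of these 3 reached the lowest JAK3i library. The log2 fold change of Oasl1 against vehicle was −0.06 ± 0.26 after JAK3i (edgeR, adjusted p = 0.841, 95% interval −0.59 to 0.47). It was −2.74 after JAK1i, −1.84 after ruxolitinib and −2.25 after tofacitinib, all called.

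The nucleic acid sensors include Ifih1 and Ddx58, helicases that recognise viral RNA in the cytoplasm, Dhx58, which tunes them, Eif2ak2, a kinase that stops translation, and Zbp1, which recognises left-handed nucleic acids. Ifih1 was at 39.4, 33.5 and 38.6 CPM after JAK3i and 36.3, 29.8 and 35.9 CPM after JAK1i, against 136.1, 142.7 and 140.5 CPM after vehicle. It was at 46.8, 46.2 and 48.5 CPM after ruxolitinib and 55.0, 50.7 and 58.9 CPM after tofacitinib, and pretreatment skin had 120.3 to 144.5 CPM (median 130.2). The JAK3i and JAK1i libraries of Ifih1 overlapped, and both sets lay below ruxolitinib and tofacitinib. Zbp1 kept 10% of vehicle after JAK3i, Ddx60 22.1%, Dhx58 26.6%, Ddx58 37.0% and Eif2ak2 37.3%. Eif2ak2 had 47.4, 35.7 and 41.8 CPM after JAK3i and 34.5, 32.0 and 29.8 CPM after JAK1i, against 111.0, 116.8 and 106.9 CPM after vehicle.

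Ifi204, a sensor of DNA of the p200 family that is well expressed in myeloid cells, stayed at its vehicle level after JAK3i. It was at 63.8, 55.3 and 51.4 CPM after JAK3i, against 58.0, 53.0 and 54.0 CPM after vehicle and a pretreatment range of 41.4 to 67.5 CPM (median 62.8). It had 10.8, 8.16 and 18.9 CPM after JAK1i, 27.1, 32.2 and 32.2 CPM after ruxolitinib and 31.9, 38.4 and 36.0 CPM after tofacitinib. JAK3i and vehicle libraries of Ifi204 overlapped, and every JAK1i, ruxolitinib and tofacitinib library lay below both. The log2 fold change of Ifi204 was 0.05 ± 0.20 after JAK3i (edgeR, adjusted p = 0.849, 95% interval −0.38 to 0.47), −2.12 after JAK1i, −0.85 after ruxolitinib and −0.63 after tofacitinib. Without tofacitinib replicate 1 the tofacitinib value was −0.57 and was no longer called (adjusted p = 0.0566).

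Rsad2 encodes viperin, an enzyme that makes a nucleotide that stops viral polymerases, and Cmpk2, next to it on chromosome 12, is a mitochondrial nucleotide kinase. Rsad2 was at 10.5, 8.69 and 11.9 CPM after JAK3i and 3.63, 4.58 and 6.22 CPM after JAK1i, against 23.3, 22.3 and 22.3 CPM after vehicle. It had 7.65, 7.97 and 7.86 CPM after ruxolitinib, 7.30, 7.32 and 12 CPM after tofacitinib and 17.1 to 29.2 CPM (median 22.8) in pretreatment skin. All JAK3i libraries of Rsad2 lay above JAK1i and below vehicle. Rsad2 kept 45.7% of vehicle after JAK3i and Cmpk2 50.2%, both called lower.

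The PARP genes encode enzymes that attach ADP-ribose to proteins, and Dtx3l is the ubiquitin ligase that partners Parp9. All 4 fell after JAK1i, JAK3i, ruxolitinib and tofacitinib, with standard errors of 0.08 to 0.14 on the log2 scale. Parp14 was at 97.1, 63.9 and 75.9 CPM after JAK3i and 58.0, 36.7 and 44.0 CPM after JAK1i, against 250.5, 256.9 and 263.5 CPM after vehicle. It had 74.1, 73.8 and 76.6 CPM after ruxolitinib, 78.1, 71.2 and 87.7 CPM after tofacitinib and 235.3 to 275.9 CPM (median 254.9) in pretreatment skin. Parp9 was at 42.7, 35.6 and 43.5 CPM after JAK3i and 30.1, 25.3 and 30.5 CPM after JAK1i, against 144.1, 150.0 and 138.2 CPM after vehicle. Neither gene had a JAK1i, JAK3i, ruxolitinib or tofacitinib library near vehicle. Dtx3l was at 60.3, 46.2 and 59.2 CPM after JAK3i and 49.01, 41.9 and 39.8 CPM after JAK1i, against 163.7, 159.8 and 160.8 CPM after vehicle. Parp12 was at 61.7, 53.5 and 57.3 CPM after JAK3i and 45.9, 38.2 and 36.9 CPM after JAK1i, against 144.5, 137.5 and 129.2 CPM after vehicle. For Dtx3l the lowest JAK3i library lay inside the JAK1i range, and for Parp12 the JAK3i and JAK1i libraries did not overlap.

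The other 11 genes range from the restriction factor Bst2 (tetherin, which holds budding virus at the cell surface) to Sp100, a nuclear body protein, and 9 of them were called lower after JAK3i. Ifi44 was at 29.4, 7.92 and 21.1 CPM after JAK3i and 3.97, 3.05 and 6.67 CPM after JAK1i, against 110.7, 113.0 and 105.4 CPM after vehicle. Its JAK3i libraries differed widely, and they all lay above JAK1i and below vehicle. Ifi44 had 9.14, 10.1 and 10.3 CPM after ruxolitinib, 8.91, 8.75 and 11.4 CPM after tofacitinib and 87.2 to 128.2 CPM (median 101.2) in pretreatment skin. Bst2 kept 29.3% of vehicle after JAK3i, Rtp4 24.9%, Xaf1, which binds an inhibitor of apoptosis, 27.2%, Samd9l 37.1%, Ifi35 44.9% and Trim30a 50.1%. Lgals3bp, a secreted galectin-binding protein, kept 59.3%, and Sp100 kept 71.3% and was still called (log2 fold change −0.49 ± 0.11, edgeR, adjusted p = 0.000824). Sp100 had the smallest change among the genes called lower after JAK3i.

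Epsti1, named for its induction in epithelial cells by stromal cells, and Ifi27l2a, which encodes a small hydrophobic protein, completed the set that was not called lower after JAK3i. Epsti1 was at 24.2, 16.8 and 17.5 CPM after JAK3i, against 17.2, 19.1 and 21.5 CPM after vehicle and 18.3 to 23.8 CPM (median 19.6) in pretreatment skin. It had 3.58, 3.00 and 6.89 CPM after JAK1i, 9.65, 10.3 and 10.5 CPM after ruxolitinib and 11.2, 10.5 and 10.2 CPM after tofacitinib. JAK3i and vehicle libraries of Epsti1 overlapped, and those of JAK1i, ruxolitinib and tofacitinib lay below both. Its log2 fold change was 0.02 ± 0.19 after JAK3i (edgeR, adjusted p = 0.946, 95% interval −0.38 to 0.42), −2.10 after JAK1i, −0.92 after ruxolitinib and −0.86 after tofacitinib.

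Ifi27l2a behaved differently from the rest, with uneven libraries in several groups. It was at 314.7, 129.4 and 208.8 CPM after JAK3i and 151.7, 316.8 and 243.0 CPM after tofacitinib, against 170.5, 176.7 and 173.1 CPM after vehicle. Both sets lay on both sides of vehicle. It had 105.2, 62.8 and 55.9 CPM after JAK1i, 112.5, 145.0 and 125.1 CPM after ruxolitinib and 133.9 to 174.7 CPM (median 161.4) in pretreatment skin. Ifi27l2a was called lower after JAK1i (log2 fold change −1.22 ± 0.27, edgeR, adjusted p = 0.000519). It was 0.33 ± 0.26 after JAK3i (adjusted p = 0.283, 95% interval −0.22 to 0.88), −0.44 after ruxolitinib (adjusted p = 0.17) and 0.45 after tofacitinib (adjusted p = 0.157). In a fit of only the ruxolitinib and vehicle libraries it was called lower after ruxolitinib (−0.42, adjusted p = 0.00133). A single library decided part of this: without JAK3i replicate 2 the gene was called higher after JAK3i (0.59, adjusted p = 0.0469), and without tofacitinib replicate 1 it was called higher after tofacitinib (0.69).

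**Figure D4:**
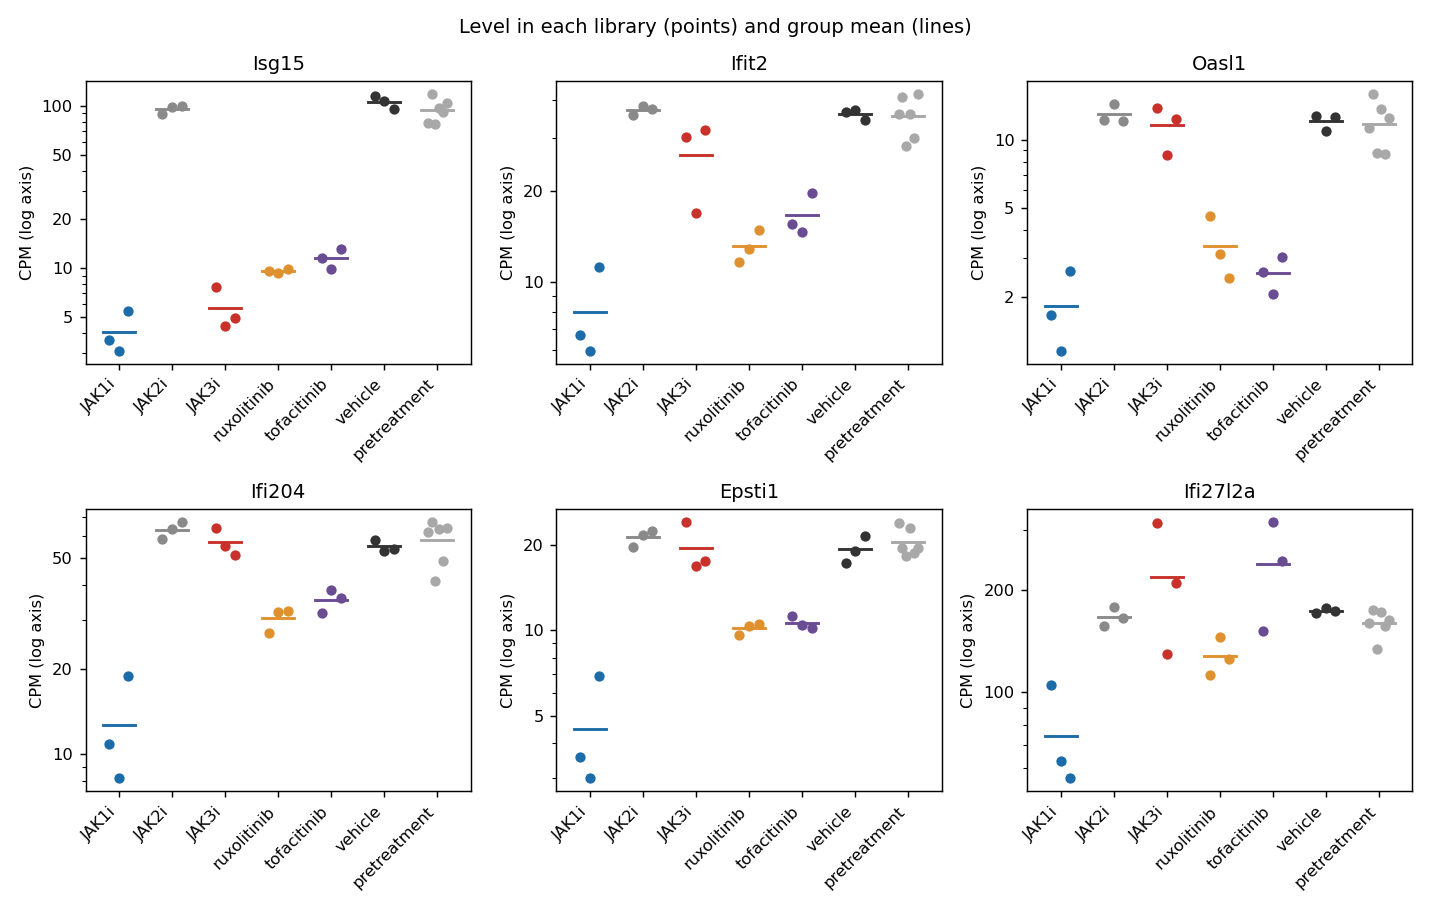
CPM on log axes in each library, with lines at group means, for Isg15 and for the 5 genes not called lower after JAK3i, over 7 groups. Isg15 after JAK3i (4.39 to 7.65 CPM) lies near JAK1i (3.10 to 5.49 CPM), whereas Oasl1, Ifi204 and Epsti1 after JAK3i overlap vehicle and lie above JAK1i.

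Set directly against JAK1i, JAK3i left 32 of the 38 genes higher and 0 lower, where 21% of all genes were called higher and 21.9% lower. The systemic doses in the methods differ (30 mg/kg for JAK3i and 50 mg/kg for JAK1i), and the labels describe an ointment, so this compares the treatments as given. The median log2 fold change of JAK3i over JAK1i was 1.08, against −0.03 for all genes. The largest differences were those of Oasl1 (2.68 ± 0.30, edgeR, adjusted p = 6.74e-07), Ifi204 (2.17 ± 0.22, adjusted p = 2.04e-07), Epsti1 (2.12 ± 0.21, adjusted p = 1.71e-07) and Ifi44 (2.09 ± 0.32, adjusted p = 3.7e-05). The smallest called differences were those of Parp12 (0.51), Parp9 (0.50), Eif2ak2 (0.37) and Dtx3l (0.34). By role, the genes higher after JAK3i were 6 of 6 synthetases and nucleases, 6 of 7 sensors, 4 of 4 PARP genes, 2 of 2 of the viperin pair, 10 of 11 other genes, 2 of 3 IFIT genes, 1 of 3 genes of the ISG15 system and 1 of 2 Mx genes, and differences between these roles were not tested. The 6 genes not called were Mx2 (0.56, 95% interval 0.05 to 1.07), Isg15 (0.48, 0.03 to 0.93), Ifit1 (0.20, −0.22 to 0.63), Usp18 (0.14, −0.18 to 0.46), Ifih1 (0.13, −0.05 to 0.30) and Ifi35 (0.01, −0.22 to 0.24, and −0.06 with RLE scaling). Without JAK1i replicate 3 the count was 29 (21.4% of all genes higher and 31.5% lower), with a median of 0.97. The differences of Oasl1, Ifi204, Epsti1 and Ifi44 were then 2.93, 2.47, 2.46 and 2.36, with Isg15 then called and Ifit3, Eif2ak2, Dtx3l and Xaf1 no longer called. Ifit3, Dtx3l and Xaf1 also lost their call without JAK1i replicate 2, Ifit3 and Xaf1 without JAK3i replicate 1 and Ifit3 without JAK3i replicate 3, while Mx2 was called without JAK3i replicate 2. Without the 6 libraries named differently in the 2 tables it was 25 higher and 1 lower (13.2% and 16.4% of all genes), the lower one being Ifi35 (−0.50, adjusted p = 0.0187). In a fit of only the JAK3i and JAK1i libraries the count was 17 (9.47% of all genes higher and 5.19% lower). With total counts in place of TMM it was 35, but the median of all genes was then 0.127, against −0.03 with TMM. Of all genes called in this comparison, whichever the direction, 30.5% were lower with total counts, against 51% with TMM.

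JAK3i left some genes higher and some lower than ruxolitinib or tofacitinib did, inhibitors with the same systemic dose in the methods (30 mg/kg). Over ruxolitinib, 13 genes were higher (17.5% of all genes) and 3 lower (19%), with a median log2 fold change of 0.14. Over tofacitinib, 12 were higher (18.7% of all genes) and 5 lower (20.7%), with a median of 0.03. Oasl1 had the largest difference in both, 1.78 ± 0.27 over ruxolitinib (edgeR, adjusted p = 4.49e-05) and 2.18 ± 0.28 over tofacitinib (adjusted p = 5.7e-06). The genes lower after JAK3i were Isg15 (−0.76 ± 0.20 against ruxolitinib, adjusted p = 0.00547, and −1.02 ± 0.20 against tofacitinib, adjusted p = 0.000444), Usp18 (−0.62 and −0.52) and Ifih1 (−0.34 and −0.56) in both comparisons, and Ifit1 (−0.51) and Samd9l (−0.39) against tofacitinib. Higher in both were Ifit2, Oas1a, Oasl1, Dhx58, Ifi204, Parp12, Ifi44, Trim30a, Epsti1, Sp100 and Lgals3bp. Ifit3 and Ifi27l2a were called higher over ruxolitinib and Oasl2 over tofacitinib. Several of these calls were close to the threshold. Of 15 alternatives, Oasl2 lost its call over tofacitinib in 10, Ifit1 in 8, Ifit2, Lgals3bp and Parp12 in 5 and Samd9l in 4. Ifi204 lost its call over tofacitinib in 3, and Ifi44, Trim30a and Usp18 in 2. Over ruxolitinib Ifit3 lost it in 9, Ifi27l2a in 5, Trim30a in 4, Ifi44 in 3 and Oas1a in 2. The calls of Oasl1, Dhx58, Epsti1, Sp100, Isg15 and Ifih1 held in all 15 in both comparisons. Both comparisons use the same 3 JAK3i libraries, and they move with them. Without JAK3i replicate 1, 8 genes were higher and 7 lower than after ruxolitinib (13.9% and 16% of all genes), and 5 higher and 7 lower than after tofacitinib (15.1% and 17.3%), where all but the 8 higher are near the share of all genes. Without JAK3i replicate 2, 17 were higher and 3 lower than after tofacitinib (14.8% and 19.8% of all genes), and without tofacitinib replicate 3, 3 were lower (17%). Without JAK3i replicate 3 or tofacitinib replicate 1, 8 were higher (16% and 16.3% of all genes).

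**Figure D5:**
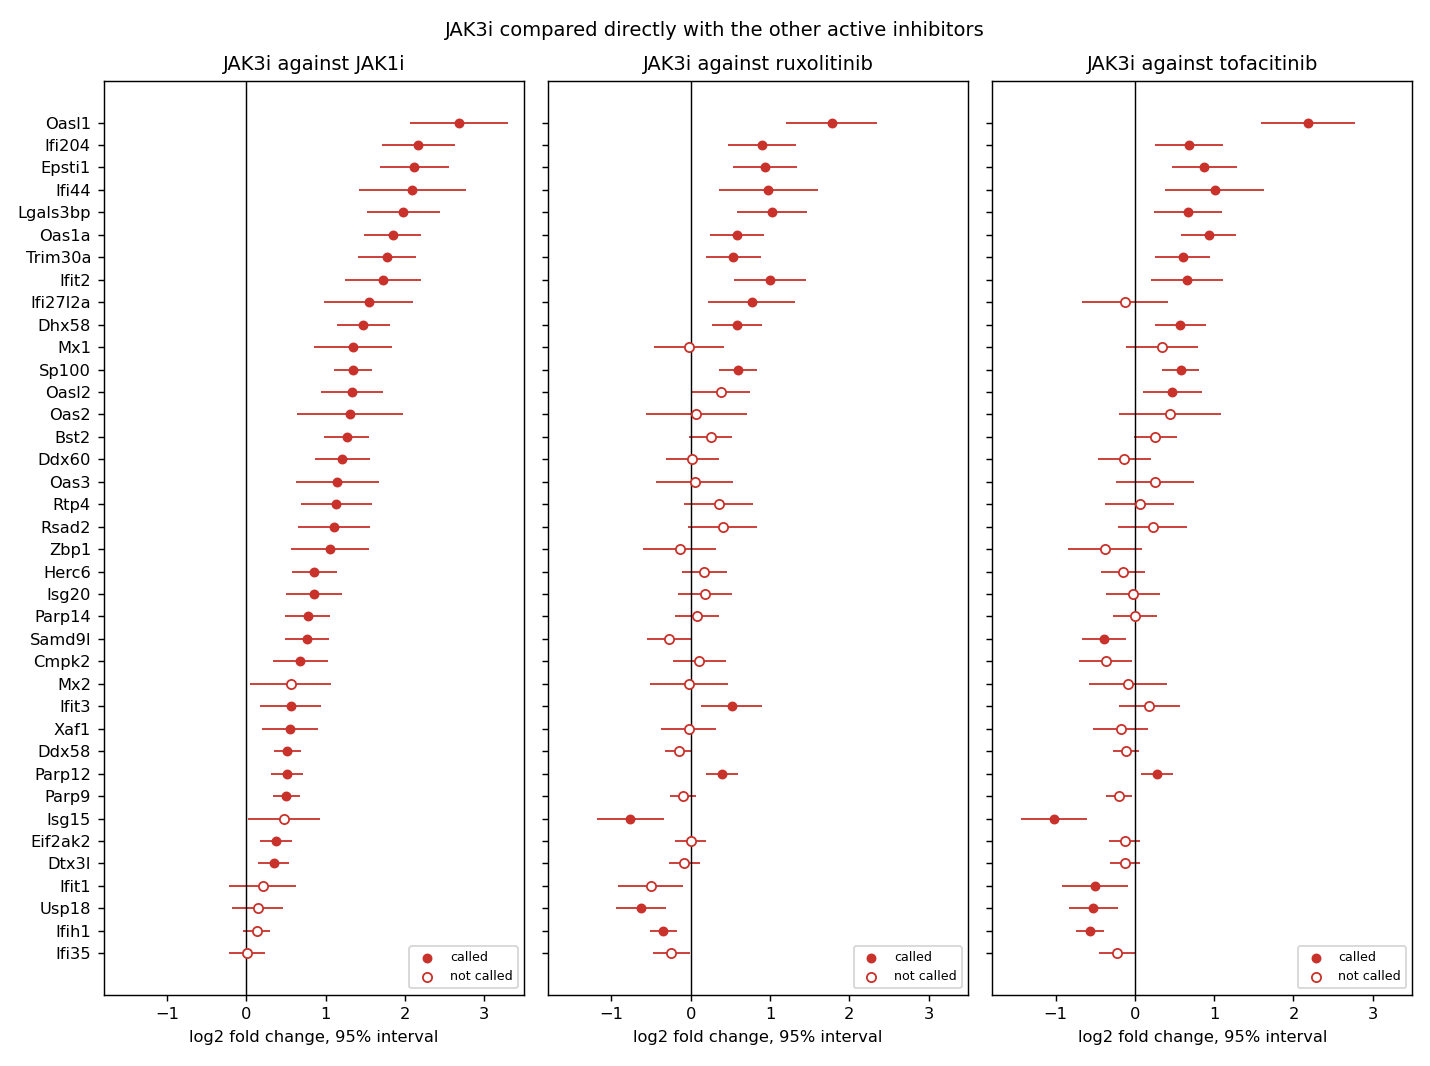
Log2 fold change of JAK3i over JAK1i, over ruxolitinib and over tofacitinib for the 38 antiviral genes, with 95% intervals as bars. Oasl1 is furthest to the right in each panel (2.68, 1.78 and 2.18), and Isg15 is the furthest to the left of 0 against ruxolitinib and tofacitinib (−0.76 and −1.02).

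The pathway upstream of these genes was followed in a list of 41 genes, of which 23 had enough counts to test. Of these, 13 were called lower and 4 higher after JAK3i, 20 and 1 after JAK1i, 15 and 1 after ruxolitinib and 16 and 1 after tofacitinib. The shares of all genes were 33.1% lower and 31.7% higher after JAK3i and 35.4% and 28.8% after JAK1i. They were 27.2% and 23.6% after ruxolitinib and 28.2% and 24.8% after tofacitinib. The 4 pathway genes higher after JAK3i are thus a smaller share than among all genes. The 18 ligand genes (the IFN-α family, IFN-β and related genes) summed to 11, 2 and 9 counts after JAK3i and 2, 1 and 4 after JAK1i, against 5, 2 and 6 after vehicle, and no library held more than 15. None of them could be tested at this depth. The receptor chain Ifnar2 rose after JAK3i (log2 fold change 0.95 ± 0.14, edgeR, adjusted p = 6.18e-06) and fell after JAK1i (−1.05), while Ifnar1 was at 0.09 after JAK3i (adjusted p = 0.331) and fell by 0.57 after JAK1i. Stat2 and Irf9, parts of the complex that binds the ISRE, fell after both, Stat2 by 2.18 on the log2 scale after JAK3i and 2.50 after JAK1i, and Irf9 by 1.5 after JAK3i and 1.69 after JAK1i. Irf7, the factor that amplifies interferon genes, had a mean of 36.3 CPM after JAK3i and 14.4 CPM after JAK1i, against 157.2 CPM after vehicle. Tlr7, a sensor of single-stranded RNA in endosomes, rose to a mean of 32.6 CPM after JAK3i, against 7.09 CPM after vehicle (log2 fold change 2.20), and fell after JAK1i (−1.14, and −2.49 without JAK1i replicate 3). Without that library 19 of the 23 pathway genes were lower and 2 higher after JAK1i (35% and 34.6% of all genes).

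Of 50 further interferon-stimulated genes that were tested, 34 were called lower and 6 higher after JAK3i (median log2 fold change −0.76, with 33.1% of all genes lower and 31.7% higher). After JAK1i 46 were lower and 0 higher (median −1.68, with 35.4% of all genes lower and 28.8% higher). Over JAK1i, JAK3i had 38 higher and 1 lower (21% and 21.9% of all genes). Without JAK1i replicate 3 these counts were 36 and 2 (21.4% and 31.5% of all genes). The 6 called higher, a smaller share than among all genes, were Tlr13, a sensor of bacterial RNA (1.79), Ifi207 (1.76), Slfn5 (0.61), Ifi27 (0.61), Ifi205 (0.57) and Ifitm2 (0.43), and Ifi207 and Ifi205 are relatives of Ifi204 on chromosome 1. Oas1g, a near copy of Oas1a, fell by 2.14. In the list of 27 genes of the IFN-γ pathway and its targets, 24 were lower and 1 higher after JAK3i (median −2.59) and 25 and 0 after JAK1i (median −2.48), and JAK3i over JAK1i gave 12 higher and 2 lower (median 0.39, with 21% and 21.9% of all genes), or 9 and 4 without JAK1i replicate 3 (median 0.14, with 21.4% and 31.5% of all genes).

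Markers of several cell types moved with these groups. Of all genes, 33.1% were called lower and 31.7% higher after JAK3i, and 35.4% and 28.8% after JAK1i. After ruxolitinib 27.2% were lower and 23.6% higher, and after tofacitinib 28.2% and 24.8%. For JAK3i over JAK1i, 21% were higher and 21.9% lower. Without JAK1i replicate 3, 35% were lower after JAK1i, and 21.4% were higher for JAK3i over JAK1i. Of 20 macrophage markers, 12 were higher and 1 lower than vehicle after JAK3i (median log2 fold change 1.32), while 16 were lower after JAK1i. The 6 lower after ruxolitinib and 7 after tofacitinib are shares near those of all genes (27.2% and 28.2%). Over JAK1i, JAK3i had 18 of the 20 higher, and 20 without JAK1i replicate 3, where 17 were lower after JAK1i than after vehicle (median −2.80, against −1.69 with it). Their summed level was 7112, 8022 and 4438 CPM after JAK3i replicates 1, 2 and 3, and 253 to 998.9 CPM after JAK1i, with JAK1i replicate 3 the highest, against 1377 to 1596 CPM after vehicle. No defining marker was at 0. The antiviral sums of JAK3i replicates 1, 2 and 3 were 1553, 946 and 1260 CPM, and how these go with the macrophage sums was not tested. T cell markers were lower after JAK3i for 18 of 18, with sums of 85.6 to 116.5 CPM after JAK3i and 76.9 to 183.9 CPM after JAK1i, against 578.9 to 677.8 CPM after vehicle. Plasmacytoid dendritic cell markers, of cells that make much type I interferon, summed to 465.8 to 506.6 CPM after JAK3i, against 884.8 to 1018 CPM after vehicle. Of these, 6 of 9 were lower and 2 higher, the latter a smaller share than among all genes. Skeletal muscle markers summed to 33810 to 45920 CPM after JAK3i and 49280 to 133500 CPM after JAK1i, against 8301 to 10930 CPM after vehicle. After JAK3i 9 of 10 epidermal keratinocyte markers and 14 of 14 hair shaft keratins were lower than after vehicle, and 12 of 12 adipocyte markers were higher. The same counts of hair shaft keratins and adipocyte markers were called after JAK1i, ruxolitinib and tofacitinib, and 7, 5 and 5 of the 10 keratinocyte markers were lower after JAK1i, ruxolitinib and tofacitinib. The part of these cell types in the levels of the antiviral genes was not tested.

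Genes outside the group whose pattern was most like it were found by Pearson correlation of mean log2 CPM over the 7 groups, given here as a description. To the mean of all 38 genes these included Gbp9, a guanylate-binding GTPase (r = 0.99966), Rbms1, Psmb10 and Map4k4. Gbp9 averaged 54.3 CPM after JAK3i and 25.2 CPM after JAK1i, against 189.5 CPM after vehicle. To the mean of the 5 genes not called lower after JAK3i they were A530040E14Rik (r = 0.9987), Rab31, Dock2, Cmtm7 and Fut4. Dock2, an exchange factor of white blood cells, averaged 50.9 CPM after JAK3i and 7.70 CPM after JAK1i, against 51.6 CPM after vehicle. Rab31 averaged 74.8 CPM after JAK3i and 25 CPM after JAK1i, against 77.5 CPM after vehicle. Without JAK1i replicate 3 the JAK1i means were 26.6 CPM for Gbp9, 5.20 for Dock2 and 19.3 for Rab31. The 7 points share their libraries with the genes themselves, and JAK2i, vehicle and pretreatment are near-equal among them. The 5 genes were chosen by their level after JAK3i, so levels near vehicle after JAK3i in genes most like them follow from that choice.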

How the data were processed

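The authors deposited raw read counts per Entrez gene for 24 libraries. Subread, DESeq2 1.18.1 and mm10 (GRCm38) appear in the submitters' notes; aligner settings, strand and annotation are not given in the sources used here. A second deposited table holds score values of 7 signature genes made by the authors, used only to check columns. A spreadsheet had turned 26 symbols into dates, restored by Entrez ID, and 855 genes have no symbol (at most 0.608% of a library's counts). No column of per-sample values was left unused.

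The fit used edgeR 4.0.16 under R 4.3.3 (TMM, filterByExpr with minimum count 10 and total 15, quasi-likelihood test in 1 fit of 24 libraries in 7 groups, common biological coefficient of variation 0.17, Benjamini-Hochberg over 17770 genes). Levels are CPM scaled by TMM and not corrected for gene length, and log2 CPM used a prior count of 2. The genes and lists were chosen with earlier results of these data known. Values per library are given, by rule, for the gene with the most counts after vehicle in each role, each gene not called lower after JAK3i, and the 4 largest and 4 smallest called differences of JAK3i over JAK1i. Alternatives were DESeq2 1.42.0, RLE scaling, total counts, no filter, a filter of 1 CPM in 3 libraries, only the 2 groups compared, the 18 posttreatment libraries with and without a replicate block, each library left out, pretreatment in place of vehicle and, chosen after seeing the data, leaving out the 6 libraries whose names differ between the 2 tables. Some genes of the lists are not reported here by name.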

Additional observations from a re-analysis of the deposited data

Results flagged for a closer look

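Pretreatment replicate 2 lay far above the other pretreatment libraries for Usp18 and Oasl2. Usp18 was at 49.7 CPM there, with the next highest library at 42.9 and the lowest at 39.1 CPM. Oasl2 was at 272.9 CPM, with the next highest at 232.1 and the lowest at 211.9 CPM. Of the 38 genes tested in these 6 libraries 2 were picked out, and chance gives about 1 in 20. The cause was not tested.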

How the results depend on the processing

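JAK1i had 38 genes lower than vehicle in every alternative run except 1 (37, below), and JAK2i against vehicle and vehicle against pretreatment kept 0 called, in every alternative run. Against vehicle, JAK3i had 33 or 34 lower, ruxolitinib 37 or 38 and tofacitinib 36 or 37. In the main fit 35.4% of all genes were lower after JAK1i, 33.1% after JAK3i, 27.2% after ruxolitinib and 28.2% after tofacitinib. With total counts 5 genes were lower after JAK3i than after ruxolitinib. With only the 2 groups compared, 17 were higher after JAK3i than after JAK1i and 3 lower than after tofacitinib. In the main fit 19% of all genes were lower after JAK3i than after ruxolitinib and 20.7% than after tofacitinib. The 5 and the 3 are smaller shares than these, and the share of all genes for the 17 is given above. With pretreatment in place of vehicle, 1 (Ifi27l2a, 0.57, adjusted p = 0.0349) was higher after tofacitinib, and JAK3i values were −0.027 for Ifi204, −0.073 for Epsti1 and −0.43 for Ifit2, which was then called lower.

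With each library left out in turn, counts ranged over 8 to 15 higher and 3 to 7 lower for JAK3i over ruxolitinib, and 5 to 17 higher and 3 to 7 lower for JAK3i over tofacitinib. They were 29 to 33 higher for JAK3i over JAK1i, and 0 to 1 higher for JAK3i and for tofacitinib over vehicle. In the main fit 17.5% of all genes were higher and 19% lower over ruxolitinib, and 18.7% and 20.7% over tofacitinib. Over JAK1i 21% of all genes were higher. The counts of lower genes are thus near or below the share of all genes. Log2 fold changes of JAK3i over vehicle ranged over −0.21 to 0.12 for Oasl1, −0.045 to 0.11 for Ifi204, −0.037 to 0.59 for Ifi27l2a and −0.17 to 0.11 for Epsti1. Those of JAK3i over JAK1i ranged over −0.044 to 0.38 for Ifit1, −0.049 to 0.25 for Usp18, −0.032 to 0.11 for Ifih1 and −0.20 to 0.11 for Ifi35, which was also −0.0645 with RLE scaling, −0.064 with DESeq2, −0.086 with no filter and −0.076 with the stricter filter. Without the 6 libraries named differently in the 2 tables, an alternative chosen after seeing the data, 37 genes were lower after JAK1i than after vehicle, and JAK3i over JAK1i had 25 higher and 1 lower. JAK3i over vehicle was then 0.0612 for Oasl1, −0.0695 for Ifi204 and −0.11 for Epsti1, and JAK3i over JAK1i −0.0206 for Ifit1, −0.0105 for Ifih1 and −0.496 for Ifi35. Of the reversed values only this last was called. The cause of these changes was not tested.

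With total counts the median of all genes moved to −0.168 for JAK1i over vehicle (−0.0608 with TMM), 0.11 for ruxolitinib over vehicle (−0.0048) and 0.127 for JAK3i over JAK1i (−0.0325). Replicate numbers did not pair the libraries (mean r of deviations −0.000308 over 45 same-number pairs), and with the replicate block JAK3i had 34 genes lower than vehicle, Ifit2 among them (−0.49, adjusted p = 0.0414).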
